A study of Drosophila melanogaster with 2 samples.

Results

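The aminoacyl-tRNA synthetase genes were taken as the protein-coding genes whose symbol is an amino acid abbreviation, or 2 joined, followed by RS, with -m added for the mitochondrial enzymes. This gave 33 genes of 13945 protein-coding genes on the main chromosome arms, 18 cytoplasmic and 15 mitochondrial. The class was set by the symbol alone. ThrRS, LysRS, GlyRS, HisRS and GlnRS had no -m counterpart by this rule, and whether their enzymes also serve mitochondria was not examined. Binding was mapped by ChIP-seq, sequencing of DNA recovered with a protein, in whole Drosophila melanogaster embryos of both sexes aged 0 to 24 hours. All embryos came from 1 transgenic line that stably expresses Dp with GFP at its C terminus, and the only group held 2 biological replicates, numbered 1 and 3. The labels do not say what promoter drives the fusion. They describe each library as an input control, yet give Dp as what the antibody was aimed at, and the peaks are treated here as Dp peaks. There was no second condition, so no contrast between conditions could be tested, and a whole embryo averages over all its tissues. Each replicate has a biosample of its own in the labels, which say nothing on how the embryos were collected, so the spread between them may be partly technical. Depth was unknown because the files give peaks and no reads.

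These enzymes join each amino acid to its tRNA, the step that makes the genetic code readable by the ribosome. Animal cells keep a set for the cytosol and, for most amino acids, a separate set that is encoded in the nucleus, imported into mitochondria and used to translate the few proteins of the mitochondrial genome. Dp is the partner with which E2F transcription factors bind DNA, and E2F and Dp dimers are best known for controlling genes of DNA replication and cell division.

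Dp was found at nearly all synthetase genes. A summit of the authors' thresholded list lay no more than 500 bp from an annotated start in 31 of the 33, or 93.9%, while 42.2% of all protein-coding genes had one. All 18 cytoplasmic genes and 13 of the 15 mitochondrial genes were in this state, called bound from here on, and the 2 others were GluRS-m and TrpRS-m, the glutamate and tryptophan enzymes of mitochondria. Cytoplasmic ribosomal protein genes, at 74 of 92 (80.4%), and mitochondrial ribosomal protein genes, at 63 of 73 (86.3%), gave shares near that of the mitochondrial synthetases (86.7%). These shares are descriptions and were not compared by a test.

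Peaks were weaker than the typical bound gene's at most of them. Signal values, the authors' own measure of peak strength on a scale they do not state, ran from 213 to 12685 in the thresholded list, and the strongest peak at a start had a median of 736 over the 5891 bound genes. Of the 31 bound synthetase genes 9 lay above that median, and none was among the strongest bound genes, those at or above the 90th percentile.

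Sequences are given for 3 of the genes with strong peaks, near or under the summit, and for the upstream bases of the gene with the lowest signal. They are read from the dm6 assembly 5′ to 3′ on the strand of the synthetase gene and hold no annotated untranslated or coding base. Capitals mark matches to any motif searched: the E2F core, bound by E2F and Dp, as TTCCCGC or TTCGCGC or TTGCCGC or TTGGCGC; CHR, a cell cycle element, as TTTGAA or TTCGAA; DRE, the site of the promoter factor DREF, as TATCGATA; the E-box CACGTG, bound by Myc and related factors; and motif 1, bound by M1BP. Both strands were searched, so a match may stand as its reverse complement.

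LeuRS-m is shown for the strongest pooled peak of all 33 genes, as the 150 bases before its start at chr3L:4825703-4825852, plus strand, with an E2F core beginning 57 bases and an E-box 24 bases before the start.
LeuRS-m: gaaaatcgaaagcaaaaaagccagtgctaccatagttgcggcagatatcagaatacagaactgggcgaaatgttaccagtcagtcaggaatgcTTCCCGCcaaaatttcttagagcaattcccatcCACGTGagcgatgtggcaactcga
ThrRS is shown for the strongest cytoplasmic peak, as 60 bases to either side of a summit 401 bp upstream, at chr2L:12103290-12103410, plus strand. It has a CHR match and 2 E2F core matches on opposite strands that overlap to form a palindrome.
ThrRS: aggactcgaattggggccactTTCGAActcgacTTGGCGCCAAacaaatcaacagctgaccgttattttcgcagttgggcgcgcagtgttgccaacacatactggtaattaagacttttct
LysRS is shown for a short shared promoter, as the 61 bases between its start and the first exon of its neighbour at chrX:9608885-9608945, minus strand, with an E2F core beginning 25 bases before the start and holding the summit, at 23 bp.
LysRS: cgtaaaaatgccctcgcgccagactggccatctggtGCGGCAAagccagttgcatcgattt
GluRS-m is shown as the gene with the lowest signal, as the 150 bases before its start at chr3L:16417178-16417327, minus strand, with 2 CHR matches and no E2F core. Its relaxed summit lay 62 bp downstream of the start, outside these bases.
GluRS-m: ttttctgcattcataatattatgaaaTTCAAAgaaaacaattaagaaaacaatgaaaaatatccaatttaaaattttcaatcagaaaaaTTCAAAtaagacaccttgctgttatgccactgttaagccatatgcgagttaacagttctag

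The strongest peaks were at mitochondrial enzymes that charge branched-chain amino acids. LeuRS-m, the leucine enzyme, had a signal of 3524 in the pooled list, 2100 in replicate 1 and 1440 in replicate 3, in a peak at chr3L:4825469-4826124 that ranked 569 of 5828. IleRS-m, for isoleucine, had 3382 pooled, 1754 in replicate 1 and 1652 in replicate 3, at chr3L:16099802-16100566. ValRS-m, for valine, had 1903 pooled, 952 in replicate 1 and 949 in replicate 3, at chr3L:8964327-8964997. These were the only mitochondrial genes above 1000 in the pooled list, and each of the 3 was higher than every other mitochondrial gene in both replicates. LeuRS-m was above IleRS-m in replicate 1 and below it in replicate 3, so the order of these 2 was not resolved. The valine summit lay in the 5′ untranslated region of the gene itself, 40 bp from the nearer of its starts, and the other 2 were intergenic, 79 bp and 62 bp upstream. PheRS-m, for phenylalanine, came next with 886 pooled, 494 in replicate 1 and 406 in replicate 3, 80 bp upstream of its start. In the annotation the first 3 are FBgn0027085 at chr3L:4825853-4829038, FBgn0036569 at chr3L:16100280-16103482 and FBgn0035942 at chr3L:8961274-8964769, the last on the minus strand.

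Among the genes classed as cytoplasmic, ThrRS, LysRS, TrpRS and TyrRS stood highest. ThrRS, the threonine enzyme, had 1492 in the pooled list, 769 in replicate 1 and 733 in replicate 3. LysRS, for lysine, had 915 pooled, 530 in replicate 1 and 393 in replicate 3, in a peak at chrX:9608588-9609130. TrpRS, for tryptophan, had 859 pooled, 463 in replicate 1 and 396 in replicate 3, and TyrRS, for tyrosine, had 836 pooled, 428 in replicate 1 and 407 in replicate 3. LysRS, TrpRS and TyrRS changed order between the replicates, so their order was not resolved. The peak counted for ThrRS, at chr2L:12103070-12103917, and that for TyrRS, at chr3L:16419253-16419903 with its summit 348 bp upstream, were nearer to another gene, as described further on. So was that for TrpRS, with its summit 68 bp from TrpRS and 47 bp from Vps16A.

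**Figure D1:**
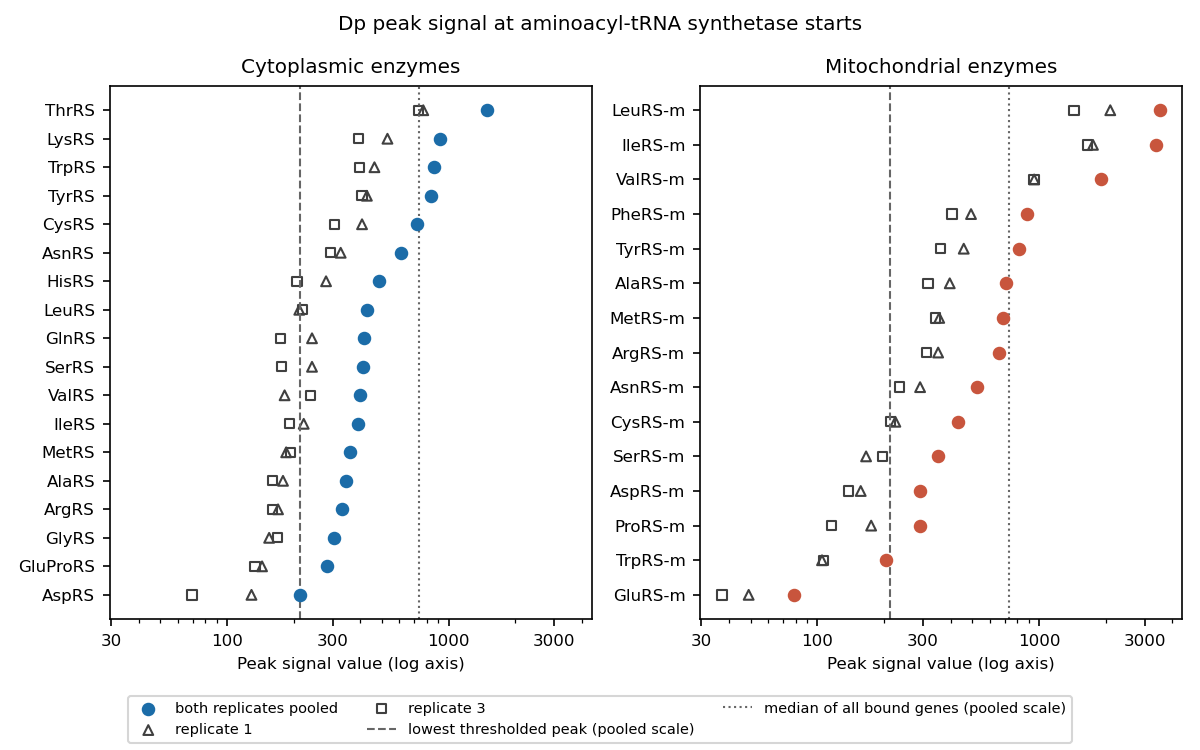
Signal value of the strongest Dp peak within 500 bp of a start for each of the 33 genes, on a log axis, in the pooled list (filled), replicate 1 (triangles) and replicate 3 (squares); the dashed and dotted lines give the lowest thresholded peak, 213, and the median of all bound genes, 736, on the pooled scale only. LeuRS-m, IleRS-m and ValRS-m stand apart on the right, and GluRS-m, at 78.6, is the lowest.

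Between these and the weakest, the other bound genes formed a continuous range. The remaining mitochondrial ones ran from SerRS-m, at 352 pooled with 166 in replicate 1 and 197 in replicate 3, to TyrRS-m, at 815 with 458 and 361. CysRS-m (430), AsnRS-m (527), ArgRS-m (662), MetRS-m (692) and AlaRS-m (710) lay between them. The remaining cytoplasmic ones ran from GlyRS, at 303 pooled with 155 in replicate 1 and 169 in replicate 3, to CysRS, at 719 with 407 and 305. Only CysRS, AsnRS (612) and HisRS (486) of these 12 exceeded 430, and ArgRS, AlaRS, MetRS, IleRS, ValRS, SerRS, GlnRS and LeuRS lay between 329 and 427. SerRS, GlnRS and LeuRS, at 412, 417 and 427 pooled, were not resolved: LeuRS was the lowest of them in replicate 1, at 212, and the highest in replicate 3, at 219. Replicate 3 gave the lower signal at most members, with a log2 difference from replicate 1 that centred on -0.18 (SD 0.26 over 31 bound genes). ValRS went furthest the other way, at 0.39, with 182 in replicate 1 and 238 in replicate 3.

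The weakest bound genes were close to the end of the thresholded list. AspRS, the cytoplasmic aspartate enzyme on 2R, held rank 5827 of 5828, with 213 pooled, 129 in replicate 1 and 69.6 in replicate 3, at chr2R:12880166-12880423. It was the member whose replicates differed most, by a log2 value of -0.90 for replicate 3 minus replicate 1, where all bound genes centred on -0.20 with an SD of 0.30. Its summit lay in a 5′ untranslated region, 8 bp downstream of an internal start, not the outermost one, and 62 bp from a start of Nmda1. GluProRS, a single protein that charges both glutamate and proline, had 282 pooled, 144 in replicate 1 and 134 in replicate 3. AspRS-m and ProRS-m were the lowest bound mitochondrial genes, both at 290 pooled, with 157 and 175 in replicate 1 and 138 and 116 in replicate 3.

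Weaker peaks were present at the 2 genes without a thresholded summit. TrpRS-m missed the list narrowly: its pooled peak, 21 bp upstream of the start, had a signal of 205 and rank 5941, with 105 in replicate 1 and 107 in replicate 3. GluRS-m had 78.6 pooled at rank 10239, with 49.0 in replicate 1 and 37.1 in replicate 3. The thresholded summit nearest to GluRS-m, 2473 bp away, was the one counted for TyrRS, the next gene on the same strand. All 33 genes had a relaxed summit at a start in the pooled list, in replicate 1 and in replicate 3, where 60.3%, 60.5% and 59.8% of all protein-coding genes did. When the 5828 strongest peaks of each replicate were used, 29 of the 33 had a summit in both, against 39.7% of all genes, and AspRS and ProRS-m joined the 2 unbound genes outside.

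Mitochondrial genes had the higher signal on the median, with wide overlap. Over all members in the pooled list the median was 662 for the 15 mitochondrial and 415 for the 18 cytoplasmic genes, 1.60-fold apart, and the ratio was 1.51 in replicate 1 and 1.55 in replicate 3 (log2 0.62 ± 0.02, SD, n = 2 replicates). The cytoplasmic values ran from 213 to 1492 and the mitochondrial ones from 78.6 to 3524, so the mitochondrial genes held both ends. The median over all genes with a pooled peak at a start was 464, which leaves the cytoplasmic genes at 0.893-fold and the mitochondrial ones at 1.43-fold of it. Cytoplasmic and mitochondrial ribosomal protein genes with such a peak had medians of 698 and 530, the reverse order of the synthetases. The SD covers the libraries and not the choice of genes, and no test of the class difference was made.

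**Figure D2:**
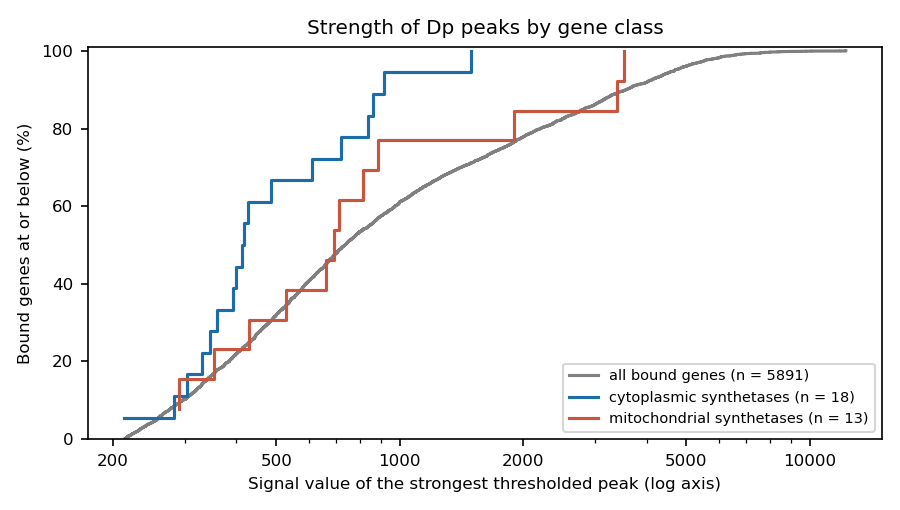
Share of bound genes at or below a given signal value of their strongest thresholded peak, on a log axis, for all 5891 bound genes, the 18 cytoplasmic and the 13 bound mitochondrial synthetase genes. The cytoplasmic curve lies to the left of the grey one over most of its length, with a median of 415 against 736, and the mitochondrial curve, with a median of 692, runs close to it up to the middle and lies to its left above, with an upper quartile of 886 against 1790.

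Set amino acid by amino acid, the mitochondrial gene was far higher for a few pairs and lower for others. Pairs were formed by symbol, as AlaRS with AlaRS-m, so GluProRS was paired with neither GluRS-m nor ProRS-m. For 12 amino acids such a pair was present, and the mitochondrial gene had the higher pooled signal in 7. The difference was over 2-fold in that direction for isoleucine (8.63-fold), leucine (8.26-fold), valine (4.77-fold), alanine (2.06-fold) and arginine (2.01-fold), the last 2 only just: in replicate 3 they were 1.96-fold and 1.93-fold. Among these 12 pairs it was over 2-fold in the other direction for tryptophan alone. There TrpRS, whose peak was nearer to Vps16A, was 4.19-fold higher than TrpRS-m. Outside the pairs, GluProRS had 282 pooled, 144 in replicate 1 and 134 in replicate 3, in a peak nearer to AP-1sigma. It was above GluRS-m in each list (78.6, 49.0 and 37.1). ProRS-m was above GluProRS in the pooled list and replicate 1 (290 and 175) and below it in replicate 3 (116). The peaks counted for ValRS, ArgRS, TyrRS and CysRS-m were also nearer to another gene, so these pairs rest partly on shared peaks. Other pairs held shared peaks too, as at LeuRS-m, whose summit lay 79 bp from its start and 87 bp from Dhc64C. For ValRS the counted summit lay 477 bp from its start and 36 bp from Kdm4B, while its summit at 30 bp had a signal of 224. Of the 12 pairs, 10 kept their direction in both replicates, and serine and tyrosine did not. The log2 difference was 3.04 ± 0.09 for isoleucine, 3.02 ± 0.42 for leucine, 2.18 ± 0.28 for valine and -2.01 ± 0.18 for tryptophan (SD, n = 2 replicates), each far beyond its spread. Aspartate, at 0.64 ± 0.50, was not.

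**Figure D3:**
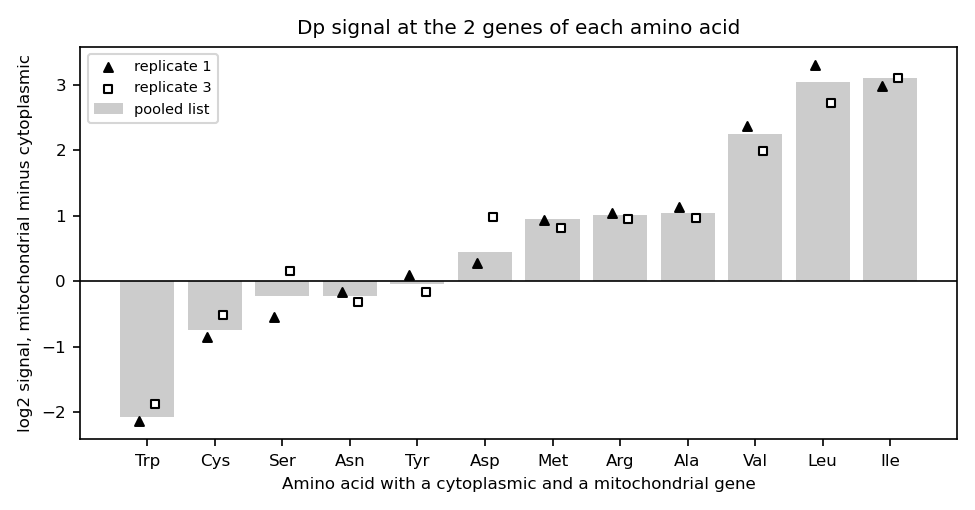
Log2 signal of the mitochondrial minus the cytoplasmic gene for the 12 amino acids with a pair matched by symbol. Bars give the pooled list, triangles replicate 1 and squares replicate 3. Isoleucine and leucine reach about 3, tryptophan lies at -2.07, and the replicate points of serine and tyrosine fall on both sides of 0.

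Summits sat just upstream of the start in most genes, and closer in the mitochondrial class. The strongest summit was at most 100 bp from a start in 11 of the 13 bound mitochondrial and 10 of the 18 cytoplasmic genes, where 61.4% of all bound genes had one that near. Only ProRS-m among the mitochondrial genes was more than 200 bp away, at 217 bp, against ThrRS, TyrRS, ValRS, GlyRS and GluProRS among the cytoplasmic ones. These were 6 of the 31 bound members, and 1326 of all 5891 bound genes were as far. For ThrRS, ValRS and GlyRS a second, weaker thresholded summit was nearer, with signals of 579 at 192 bp, 224 at 30 bp and 232 at 47 bp. Of the 31 strongest summits 26 lay between genes, 4 in a 5′ untranslated region and 1, at SerRS-m, in an intron. The same places were not counted for all bound genes, so these counts have no background and show no trait of the synthetases.

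Many of these genes share their promoter with a neighbour. An opposite-strand gene began no more than 500 bp upstream of 14 of 18 cytoplasmic and 7 of 15 mitochondrial genes, against 27.4% of all protein-coding genes, as closely as 8 bp at SerRS and 35 bp at AlaRS-m. The peak counted for a synthetase was also at the start of another protein-coding gene in 16 of 18 cytoplasmic and 7 of 13 bound mitochondrial genes, where 58.5% of all bound genes had such a peak. It was closer to that other gene in 7 cytoplasmic and 2 mitochondrial genes, 29% of the bound members in all, against 28.6% of all bound genes. For mitochondrial ribosomal protein genes the shares for an upstream start, a shared peak and a closer other gene were 72.6%, 77.8% and 41.3%. For cytoplasmic ribosomal protein genes they were 39.1%, 51.4% and 27%. Sharing was thus not particular to the synthetases. The ThrRS summit lay 65 bp from Patsas, the TyrRS summit 53 bp inside CG33158, and the ValRS summit 36 bp from Kdm4B, a histone demethylase gene. Of the strongest mitochondrial peaks, the one at LeuRS-m was shared with Dhc64C, the cytoplasmic dynein heavy chain gene, whose start is 166 bp away, while those at IleRS-m, ValRS-m and PheRS-m were at the start of no other protein-coding gene. Which gene of a shared promoter a peak belongs to cannot be told apart in these files.

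**Figure D4:**
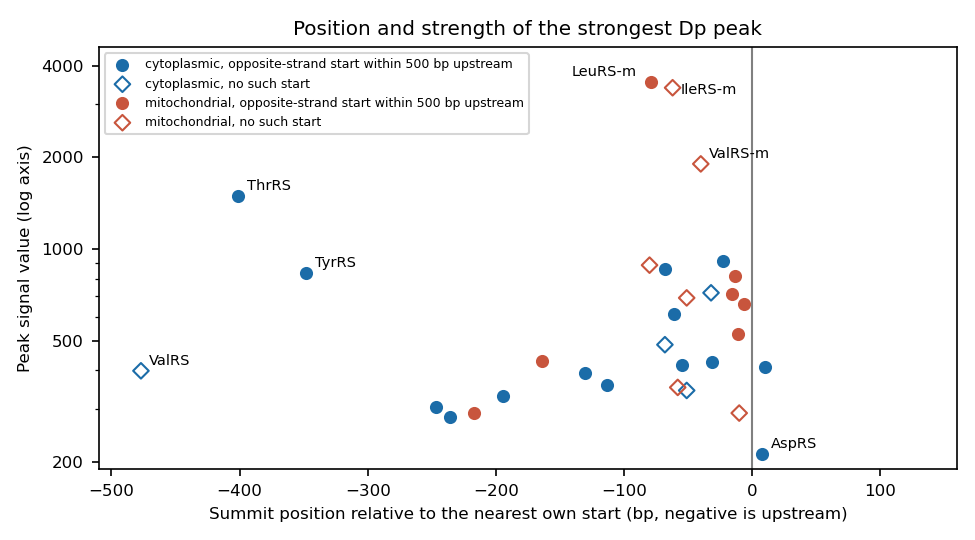
Position of the strongest thresholded summit relative to the nearest start of the same gene, in bp, against its signal value on a log axis, for the 31 bound genes; filled circles have an opposite-strand start within 500 bp upstream and open diamonds have none. Most points lie less than 100 bp upstream, and ThrRS, TyrRS and ValRS are the farthest upstream.

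Motifs near the summits were mixed. An E2F core was found no more than 100 bp from the summit in 7 of 31 bound genes (22.6%), against 18.2% of the 5107 thresholded summits at starts. The 7 were AlaRS, CysRS, LysRS, ThrRS, TyrRS, LeuRS-m and ValRS-m. Their signals ran from 344 to 3524 with a median of 915, and the other 24 bound genes had a median of 422, with IleRS-m, at 3382, the highest gene without the core. The same split of signal was not made over all summits at starts. The ThrRS and TyrRS summits were nearer to Patsas and CG33158 than to the synthetase. CHR was near 10 summits (32.3%), 4 cytoplasmic and 6 mitochondrial, against 48.8% of all summits at starts. DRE was near 5 (16.1% against 15.7%), at AlaRS, AspRS, IleRS, TrpRS and PheRS-m. Motif 1 was near GlnRS, AsnRS-m and ProRS-m (9.68% against 7.87%), and the E-box near GlnRS and LeuRS-m (6.45% against 3.21%). At 11 bound genes (35.5%) none of the 5 was present, against 31.5% of all summits at starts.

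**Figure D5:**
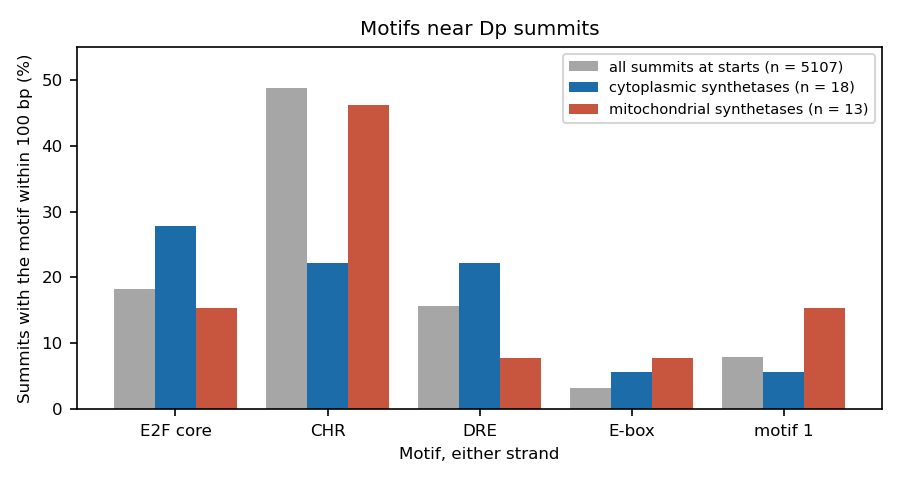
Percent of summits with each motif within 100 bp on either strand, for all thresholded summits at starts (grey), the 18 cytoplasmic (blue) and the 13 bound mitochondrial genes (red). CHR is at 22.2% in the cytoplasmic class, 46.2% in the mitochondrial class and 48.8% in all; the member classes are small, so 1 gene moves a bar by several percentage points.

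In promoters, taken as 250 bases before to 50 from the outermost start, the picture was close to that of all genes. The E2F core was in 5 of 33 (15.2%) against 14.0% of all 13945 promoters, CHR in 17 (51.5% against 48.1%), DRE in 5 (15.2% against 9.36%), motif 1 in 3 (9.09% against 4.50%) and the E-box in 2 (6.06% against 4.20%). ThrRS and TyrRS have an E2F core at the summit and none in the promoter so defined. These matches describe letters in a window and not occupancy of a site.

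Genes that work beside the synthetases were bound in 16 of 19 (84.2%), against 42.2% of all protein-coding genes, all 19 of the list being annotated. In 5 of the 16 (31.2%) the counted peak was closer to another gene, against 28.6% of all bound genes. These were AIMP1, GatA, GatC, eEF1alpha1 and eEF1beta, so their values cannot be told apart from those of their neighbours. The cytoplasmic phenylalanine enzyme, whose alpha-PheRS and beta-PheRS subunits carry a prefix and so are not among the 33, had peaks of 305 and 727. The scaffold proteins that hold several cytoplasmic synthetases in a complex had 699 for AIMP1, 2264 for AIMP2 and 3399 for AIMP3. The last 2 exceeded every cytoplasmic synthetase, with 1157 and 1781 in replicate 1 and 1125 and 1634 in replicate 3. GatA, GatB and GatC, subunits of the amidotransferase that makes glutaminyl-tRNA in mitochondria, had 395, 985 and 666, and Slimp, a paralog of SerRS-m without charging activity, had 392.

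Factors that use or sense tRNA differed widely. Gcn2, the kinase that senses uncharged tRNA, had a stronger peak than any synthetase gene, with 4216 pooled, 2308 in replicate 1 and 1921 in replicate 3. PEK, the kinase of the same pathway that responds to stress in the endoplasmic reticulum, had 649, whereas crc, the ATF4 factor that acts downstream of both, was unbound with a relaxed peak of 144. Of the elongation factors that carry charged tRNA to the ribosome or recycle the carrier, eEF1alpha1 had 283, eEF1beta 490 and eEF1gamma 657. eEF1alpha2 and eEF1delta were unbound, with relaxed peaks of 123 and 126. The mitochondrial carriers mEFTu1 and mEFTu2 had 333 and 319, the first at a summit in an intron 437 bp from its start.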

How the data were processed

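The files hold peak lists and no reads. Per the descriptions deposited with the files, the authors called relaxed peaks on each replicate and on the pool against 1 shared control alignment, and derived a list thresholded by irreproducible discovery rate from these 3 lists, on dm6. No source used here names the aligner or peak caller. For each peak the signal value, −log10 q and summit offset are the authors' own, as deposited. The signal was used to rank peaks within a list and for the medians, fold ratios and log2 differences. Ratios take the signal as linear, and differences between replicates take it as comparable between lists, which was not tested. The −log10 q was not used. A summit is the peak start plus the offset.

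Starts came from protein-coding transcripts of Ensembl release 115, and sequence from RefSeq Release 6, the same assembly; 0 peaks lay outside its chromosomes. A gene's value in a list is that of the strongest peak with a summit at most 500 bp from any start. Coordinates are 1-based. Python 3.11.15, numpy 2.4.6, pandas 2.3.3 and matplotlib 3.10.9 were used, and the gene and motif calls were tested on simulated data.

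The members, lists, motifs and naming rule were chosen with earlier results of these data known. The rule gave full values for the 4 highest and 2 lowest bound genes of each class, and for unbound genes. No statistical test was made, since 1 group has no contrast and genes are not replicates. Alternatives changed the distance, the number of peaks, the start, the assignment of peaks, the motif window or the replicate.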

Additional observations from a re-analysis of the deposited data

How the results depend on the processing

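Counts of bound genes, 31 of 33 in all, 18 cytoplasmic and 13 mitochondrial, stayed within 1.5 times under every alternative but 1. In the 2914 strongest peaks they were 13 of 33, 5 of 18 and 8 of 15, against 23.9% of all protein-coding genes. The cytoplasmic share was there close to that of all genes. When a summit counted for the closest start alone they were 25, 14 and 11, against 32.9%, and with the start inside the peak they were 27, 16 and 11, against 38.3%. Without a replicate they ran from 29 to 31, 17 to 18 and 12 to 13. Counting the phenylalanine subunits alpha-PheRS and beta-PheRS, chosen after seeing the data, gave 33 of 35 and 20 of 20. The log2 difference of the bound members' median from that of all bound genes was -0.60, and -0.50 with nearest summits, -0.65 at 250 bp and -0.57 to -0.50 without a replicate. For cytoplasmic genes it was -0.83, and -0.73, -0.80 and, at 1000 bp, -0.88, with -0.81 to -0.77 without a replicate. For mitochondrial genes it was -0.09, so close to 0 that its sign changed: 0.01 with nearest summits, -0.05 at 250 bp, -0.14 at 1000 bp and -0.16 to -0.15 without a replicate. The motif windows mattered for CHR (6 genes at 50 bp and 17 at 200 bp, against 25.7% and 66.5% of all summits at starts), for DRE (3 at 50 bp, against 12%) and for the E-box (0 at 50 bp, against 1.19%). The E2F core was near 5 of 31 summits at 50 bp, against 11.8%, and near 7 (22.6%) at 200 bp, against 25.9%. Members were thus above the share of all summits at 100 bp and below it at 200 bp. The cause of these shifts was not tested, apart from the smaller windows and lists, which hold less by construction. No paired analysis was possible because the series has 1 group. Peaks at neighbouring starts, and signal values of unknown scale and depth, limit what the values of a single gene can show.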
